A study of Mus musculus with 17 samples.

Results

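Nur77-deficient (KO) macrophages were compared between 1 h and 18 h of lipopolysaccharide (LPS), using the 6 lists of accessible sites made from them out of 17 lists in the series. ATAC-seq marks open DNA by letting the transposase Tn5 cut it and add adapters, so that reads pile up into peaks where chromatin is accessible. Bone marrow of male C57Bl6/J mice, 6 to 12 weeks old, was cultured for 7 days with L929-conditioned medium to give bone marrow-derived macrophages (BMDMs). The KO mice lacked Nr4a1, the gene of the nuclear receptor Nur77, in the whole body. They came from a loxP-flanked allele deleted by a CMV-driven Cre, and animals without the Cre transgene were then bred. The labels give the genotype of the KO samples as cre and that of the wild-type (WT) littermates as wt. KO cells received 100 ng/ml LPS for 1 h (KO 1 h, n = 3) or 18 h (KO 18 h, n = 3), and untreated KO cells (KO 0 h, n = 3) were used to read the state before LPS. WT cells at the same doses and times (WT 1 h, n = 2, of which 1 is named replicate 1-2, and WT 18 h, n = 3) were used to read the same sites. Nothing in the labels says that replicates came from separate animals, so p-values measure the spread between these samples only.

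LPS is sensed by the receptor TLR4, which activates the transcription factors NF-kB and AP-1 within minutes and switches on immediate-early genes, cytokines and chemokines. Interferon made in this first wave then acts on the cells and, through STAT and IRF factors, switches on antiviral and antigen-presentation genes later. In macrophages these signals act on enhancers kept open by PU.1 and C/EBP factors, and Nur77 is itself an immediate-early gene of LPS.

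The 6 lists held 29568 to 70843 distinct peaks, and depth, recovered from their fold and p-value columns, ran from 0.593 to 4.14 background reads per kb at 1 h and from 1.10 to 1.76 at 18 h. Inside each list the peaks were put in order of −log10 p-value, rank 1 being the strongest, and the first 24389 were kept, the number of peaks in the shortest of the 17 lists. Merging them gave 34158 consensus sites seen in at least 2 lists. KO 18 h replicate 1 stood apart. Its peaks had a median width of 135 bp, against 415 to 527 bp in the other 5 lists, and its log2 summit pileup correlated with theirs at r = 0.57 to 0.69, against 0.70 to 0.93 among the others (across sites, a description). Counts of sites and genes, the motif shares of early-only and late-only sites and their state before LPS are therefore also given without it, while motif shares split by that state or by pileup call are given with it only. Its depth rests on its shortest peak, 66 bp, against 165 to 204 bp in the others. The lists carried a promoter peak at 7 or 8 of 8 macrophage markers. Each set of B cell, T cell, neutrophil, dendritic cell and fibroblast markers had a promoter peak at 0 or 1 of its genes in every list. These were Cd3d in 6 of the 6 lists, Camp and Ms4a1 in 5, Col1a1 in 4 and Zbtb46 in 3, while Cd3e, Ly6g and Flt3 had none. In these bulk samples, fewer open cells and less signal per cell cannot be told apart.

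Some sites of the KO cells were among the best peaks at only 1 of the LPS times. A site was called early-only when all 3 KO 1 h lists and no KO 18 h list had a peak there, and late-only in the opposite case. There were 1674 early-only sites, which is 4.9% of the 34158 consensus sites, and 828 late-only sites, which is 2.42%. When windows of 100 bases to either side of the summits were merged in place of the intervals, 1866 early-only and 986 late-only sites were found. Of the interval sites, 1634 and 775 were all-or-none under both definitions. With 3 lists against 3, an exact permutation test of presence at a single site cannot go below p = 0.1, so these sites are a description. Leaving out KO 18 h replicate 1 gave 2082 and 1734 sites, and leaving out KO 18 h replicate 2 gave 2153 and 1310. The counts also depend on the cut. With all deposited peaks they were 4262 and 137, and when a peak had to cover 50% of the site they were 1945 and 15. At the weakest of their 3 lists, the early-only sites had a median rank of 18870 and the late-only sites one of 20034, close to the limit of 24389.

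Absence here means absence from the best 24389 peaks, and the whole lists often held a weaker peak. In the whole KO 18 h lists, 14.4% to 23.9% of early-only sites had a peak. In the whole KO 1 h lists, 32.5% to 93.8% of late-only sites did, with the highest share in replicate 1, the deepest list. At 936 early-only sites and 46 late-only sites no whole list of the other time had a peak.

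The sequences around the summits of 7 of the best-ranked sites are shown because they hold motifs counted among the early and late sites. Each runs 100 bases to either side of the summit on the + strand of GRCm38 (mm10), and capitals mark the motif named, which may stand on either strand. The early-only sites were an intron of Hivep3 (chr4:120032543-120032743, C/EBP motif), an intron of Ptprj (chr2:90545394-90545594, NF-kB motif) and a site 1938 bp from the start of Cttnbp2nl (chr3:105054984-105055184, AP-1 motif).
Hivep3 intron: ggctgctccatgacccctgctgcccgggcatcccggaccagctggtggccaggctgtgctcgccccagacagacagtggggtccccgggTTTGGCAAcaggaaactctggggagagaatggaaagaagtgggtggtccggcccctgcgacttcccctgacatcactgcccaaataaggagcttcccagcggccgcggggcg
Ptprj intron: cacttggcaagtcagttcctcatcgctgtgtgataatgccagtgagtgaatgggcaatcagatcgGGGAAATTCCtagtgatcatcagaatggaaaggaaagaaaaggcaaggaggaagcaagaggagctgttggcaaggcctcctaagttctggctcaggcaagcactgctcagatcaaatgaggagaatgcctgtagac
Cttnbp2nl upstream site: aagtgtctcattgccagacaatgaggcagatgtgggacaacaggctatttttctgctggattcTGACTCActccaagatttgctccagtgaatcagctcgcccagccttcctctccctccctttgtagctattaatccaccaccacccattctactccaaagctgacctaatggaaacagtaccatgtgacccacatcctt
The late-only sites lay 11115 bp from the start of Ctsh (chr9:90042937-90043137, PU.1 and C/EBP motifs), in an intron of Slc28a2 (chr2:122450500-122450700, PU.1 and C/EBP motifs), in an intron of Arhgef2 (chr3:88618181-88618381, C/EBP motif) and 126121 bp from the start of Zfp36l2 (chr17:84061726-84061926, PU.1 motif).
Ctsh distal site: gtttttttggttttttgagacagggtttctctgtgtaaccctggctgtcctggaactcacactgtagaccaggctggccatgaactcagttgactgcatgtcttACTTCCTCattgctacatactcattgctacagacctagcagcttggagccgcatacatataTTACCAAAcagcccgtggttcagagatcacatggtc
Slc28a2 intron: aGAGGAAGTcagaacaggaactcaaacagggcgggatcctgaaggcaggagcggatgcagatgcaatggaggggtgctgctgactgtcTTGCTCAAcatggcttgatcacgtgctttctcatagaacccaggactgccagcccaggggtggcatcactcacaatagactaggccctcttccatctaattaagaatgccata
Arhgef2 intron: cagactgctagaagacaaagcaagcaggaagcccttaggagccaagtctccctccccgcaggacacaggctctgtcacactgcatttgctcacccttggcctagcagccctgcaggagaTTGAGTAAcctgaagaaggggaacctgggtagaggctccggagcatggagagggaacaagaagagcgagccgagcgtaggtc
Zfp36l2 distal site: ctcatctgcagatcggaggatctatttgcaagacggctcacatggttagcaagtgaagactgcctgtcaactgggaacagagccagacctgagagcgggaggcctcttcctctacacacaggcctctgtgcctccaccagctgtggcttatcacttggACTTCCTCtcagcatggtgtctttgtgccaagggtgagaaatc

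The best-ranked early-only sites were strong peaks at 1 h. The site in an intron of Hivep3, whose nearest annotated start is that of AL607142.1, held rank 375, 267 and 651 of 24389 in the KO 1 h lists and ranks 2842, 5434 and 3043 in the KO 0 h lists, and was therefore already open before LPS. The site in an intron of Ptprj, a receptor tyrosine phosphatase, held ranks 743, 137 and 678 at 1 h and 20478, 22057 and 15387 at 0 h. All 3 early ranks were better than all 3 ranks at 0 h at both sites. Because the sites were chosen by their ranks at 1 h, this order is a description only. The site 69192 bp from the start of Hs1bp3 held ranks 2404, 1683 and 4301 at 1 h, had an NF-kB motif and no peak among the best of any KO 0 h list. The site in an intron of Pik3ca, the catalytic subunit of phosphoinositide 3-kinase alpha, held ranks 3493, 3361 and 1808 at 1 h and also had none at 0 h. The other 6 of the 10 best-ranked early-only sites were nearest to Dnaic2, Bcat1, Strip2, Mtpn, Pid1 and Cttnbp2nl. In WT, all 10 of these sites had a peak in 2 of 2 lists at 1 h, but 8 of the 10 also had one in at least 1 WT 18 h list.

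Among the best-ranked late-only sites, 2 of 10 lay in the Ifit cluster of interferon-induced genes. The site by Ctsh, a lysosomal cysteine protease, held ranks 2014, 4455 and 4755 in the KO 18 h lists. The site by Slc28a2, a nucleoside transporter, held ranks 4717, 2339 and 4850. Both had PU.1 and C/EBP motifs, no peak among the best of the WT 1 h lists and a peak in 3 of 3 WT 18 h lists. The products of the Ifit genes bind foreign RNA. One Ifit site overlapped an untranslated exon of Ifit2 (chr19:34569349-34570929) and held ranks 2161, 3286 and 6595. The other (chr19:34572578-34579779) held ranks 11242, 728 and 1526 and was the one site of the 10 with no peak in any whole KO 1 h list. The remaining sites of the 10 were nearest to Arhgef2, E030030I06Rik, Zfp36l2, Methig1, Egfl7 and Hif3a. All 10 had a peak in 3 of 3 WT 18 h lists.

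The state before LPS was mixed for both kinds of site. Of early-only sites, 45.5% had a peak in no KO 0 h list and 29.4% in all 3. Of late-only sites, 44.4% had one in none and 25.8% in all 3, against 22.3% and 55.0% of all consensus sites. A KO 0 h list held 42.1% ± 3.50 (SD, n = 3) of early-only sites and 40.7% ± 3.34 of late-only sites. The 214 late-only sites present in all 3 KO 0 h lists were among the best peaks at 0 h and 18 h and not at 1 h. In the whole KO 0 h lists the shares were 66.5% ± 22.8 and 66.7% ± 23.7. When KO 18 h replicate 1 was left out, 41.4% of early-only sites had a peak in no KO 0 h list and 31.5% in all 3, against 49.9% and 21.5% of late-only sites.

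The early-only and late-only sites of KO cells followed the same times in WT cells. The WT 1 h lists held 79.0% ± 10.5 (SD, n = 2) of the early-only sites and the WT 18 h lists 15.2% ± 1.30 (n = 3). For late-only sites these shares were 11.8% ± 0.342 and 87.5% ± 1.14. For sites chosen without KO 18 h replicate 1 the WT 1 h and 18 h means were 78.1% and 21.7% for early-only and 11.2% and 75.8% for late-only sites. Both differences had p = 0.1 in the exact two-sided permutation test, the smallest that 3 lists against 2 allow. When the whole WT lists were read, the early-only difference shrank from −63.8 to −14.8 points (exact permutation p = 0.4) and the late-only difference was 66.3 points (p = 0.1).

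**Figure D1:**
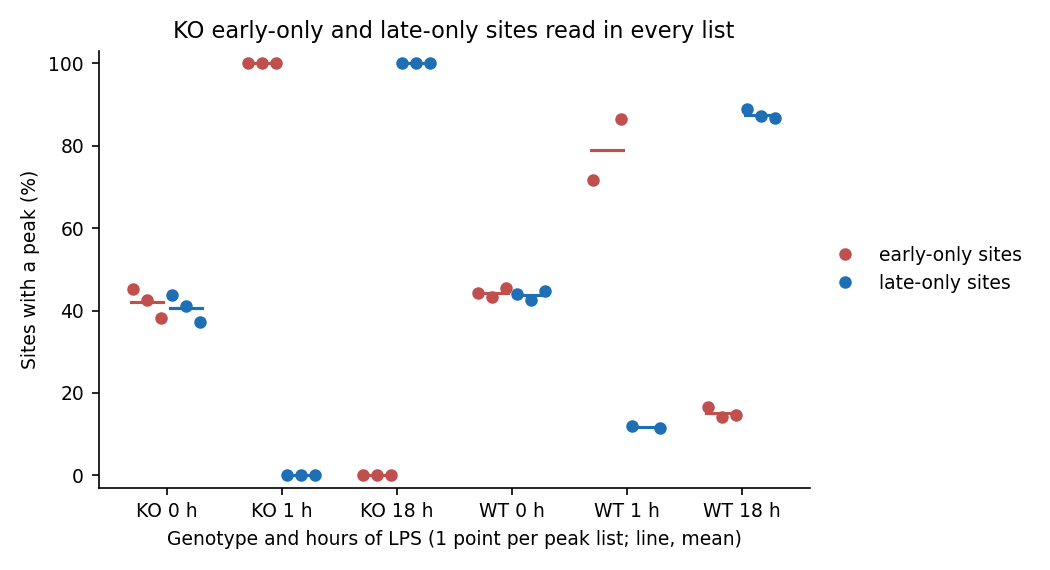
Share of the 1674 early-only and 828 late-only KO sites (y axis, %) with a peak among the best 24389 of each list, by genotype and hours of LPS (x axis). Points are lists and lines are means. The KO 1 h and KO 18 h values are 0 or 100 by definition, and the WT 18 h lists hold between 86.6% and 88.8% of the late-only sites.

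The motifs at these sites differed. Windows of 100 bases on each side of the summit were searched on both strands. The AP-1 motif (TGAGTCA or TGACTCA) stood in 27.1% of early-only sites (95% Wilson interval 25.0% to 29.3%) and in 14.7% of late-only sites (12.5% to 17.3%), against 16.4% of all consensus sites. The NF-kB motif stood in 8.90% (7.63% to 10.4%) of early-only sites, 2.29% (1.47% to 3.56%) of late-only sites and 4.95% of all sites. The C/EBP motif (TTGCNNAA or TTACNNAA) had the opposite order, with 15.7% (14.05% to 17.5%) of early-only sites, 27.9% (25.0% to 31.1%) of late-only sites and 17.1% of all sites. PU.1 (GAGGAAGT) stood in 7.65% (6.47% to 9.02%) and 10.5% (8.60% to 12.8%), against 7.69% of all sites, with intervals that overlap between the early-only and late-only sites. The interferon-stimulated response element (ISRE), the site of IRF factors, stood in 3.94% (3.11% to 4.99%) and 4.47% (3.26% to 6.10%), intervals that overlap each other and the 3.70% of all sites. The PU.1-IRF composite motif, also bound by IRF factors, stood in 5.73% (4.72% to 6.95%) of early-only sites, 2.05% (1.29% to 3.26%) of late-only sites and 4.06% of all sites. It shares letters with the ISRE, and a site may hold both. Sites are not replicates, so the intervals cover counting error only. Since 30.1% of all consensus sites were promoters, the shares were also read over 1 kb from a start. There AP-1 stood in 27.8% (25.6% to 30.1%) of early-only, 15.8% (13.4% to 18.6%) of late-only and 21.7% of all sites, and C/EBP in 16.1% (14.3% to 18.0%), 29.0% (25.8% to 32.3%) and 20.8%. At these distal sites AP-1 was thus less frequent at late-only sites, and C/EBP at early-only sites, than over all. NF-kB stood in 9.22%, 2.26% and 5.29% of them and PU.1 in 7.78%, 10.4% and 9.67%. When KO 18 h replicate 1 was left out, AP-1 stood in 28.1% of early-only and 12.3% of late-only sites, NF-kB in 8.65% and 2.83%, and C/EBP in 15.6% and 26.5%. The ISRE then stood in 3.79% (3.06% to 4.70%) and 5.48% (4.50% to 6.65%), so that the late-only interval lay above the 3.70% of all sites. PU.1 stood in 8.36% (7.24% to 9.62%) and 8.71% (7.47% to 10.1%), and the late-only interval then held the 7.69% of all sites. The PU.1-IRF composite stood in 5.38% (4.49% to 6.43%) and 2.65% (1.99% to 3.52%).

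The motifs also split by the state before LPS. NF-kB motifs stood in 13.7% (11.4% to 16.3%) of the 761 early-only sites with no peak in any KO 0 h list and in 4.47% (2.97% to 6.68%) of the 492 with a peak in all 3. AP-1 motifs stood in 25.4% (22.4% to 28.6%) and 26.0% (22.3% to 30.1%) of the same sites. C/EBP motifs stood in 31.3% (26.7% to 36.2%) of the 368 late-only sites absent at 0 h and in 23.4% (18.2% to 29.5%) of the 214 present at 0 h. C/EBP motifs stood in 18.7% (16.1% to 21.6%) of early-only sites absent at 0 h and in 12.4% (9.77% to 15.6%) of those present in all 3 lists. Among early-only sites the intervals thus did not overlap for NF-kB and C/EBP and did for AP-1. Promoters made up 4.73% and 15.9% of these early-only sites, and over 1 kb from a start the C/EBP intervals did overlap (18.6%, 16.0% to 21.6%, and 12.8%, 9.92% to 16.4%), while NF-kB stood in 13.9% (11.6% to 16.6%) and 4.59% (2.96% to 7.06%). Among late-only sites they overlapped for C/EBP and for NF-kB, which stood in 3.8% (2.28% to 6.28%) and 0.467% (0.0825% to 2.6%).

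Both kinds of site lay away from promoters. A promoter site had its summit within 1 kb of the start of a protein-coding transcript, which held for 8.60% of early-only and 9.06% of late-only sites against 30.1% of all consensus sites. Introns held 43.1% and 47.7%, and intergenic sequence 44.0% and 37.7%. The median distance to the nearest start was 18075 bp for early-only and 16221 bp for late-only sites.

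The motif content of the best peaks was then compared list by list. The NF-kB motif was in 6.22%, 5.89% and 6.05% of the best 24389 peaks of the KO 1 h lists and in 4.23%, 4.54% and 4.66% of those of the KO 18 h lists, with no overlap. The KO 0 h lists held 3.60%, 3.57% and 3.40%, below both. C/EBP was in 15.6%, 15.0% and 14.9% at 1 h and in 16.2%, 16.9% and 17.5% at 18 h, again with no overlap, but within 50 bp of the summit the difference fell from 1.66 to 0.733 points (exact permutation p = 0.4). The PU.1-IRF composite was in 3.84%, 3.72% and 3.72% at 1 h and in 3.12%, 3.16% and 3.36% at 18 h, with no overlap. AP-1 was in 18.6%, 16.3% and 17.5% at 1 h and in 16.8%, 12.4% and 14.3% at 18 h, so the times overlapped. The highest AP-1 share at 18 h belonged to KO 18 h replicate 1, and without it the difference moved from −2.99 to −4.13 points. It was −1.79 points over the best 10000 peaks and −1.81 within 50 bp of the summit. Exact two-sided permutation tests gave p = 0.1 for NF-kB, C/EBP and the PU.1-IRF composite and p = 0.2 for AP-1 (n = 3 against 3). The rarer STAT motif (0.800% at 1 h and 0.675% at 18 h) and EGR motif (0.364% and 0.317%) also had p = 0.1 in the exact permutation test and no overlap. Adjusted over 12 motifs these were 0.24 for the first 3 and for STAT and EGR and 0.343 for AP-1, so no motif passed, and 0.1 is the smallest p that the design allows. The promoter share was 38.1% ± 0.502 at 1 h and 38.6% ± 0.931 at 18 h (SD, n = 3, exact permutation p = 0.4). Over all deposited peaks, whose number differs between the lists, the promoter share was 7.73 points higher at 18 h (exact permutation p = 0.1). There the EGR share was 0.023 points higher at 18 h (exact permutation p = 0.6), the reverse of its direction in the best 24389 peaks.

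**Figure D2:**
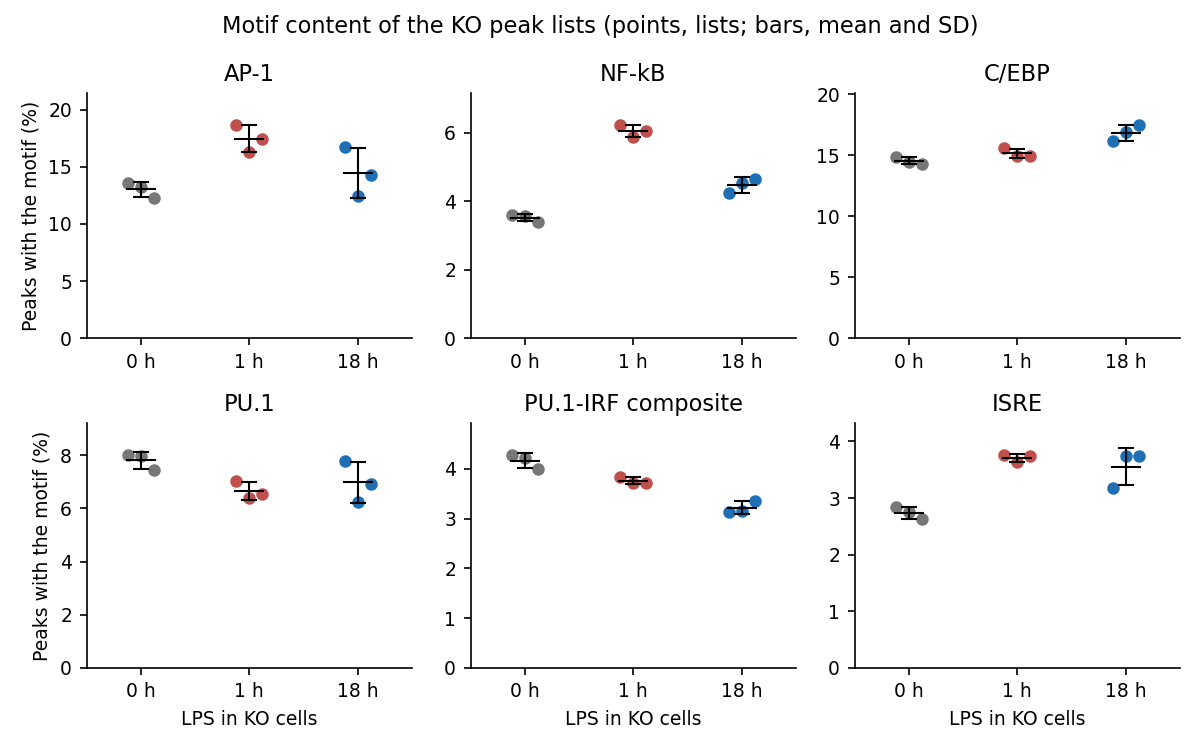
Share of the best 24389 peaks of each KO list (y axis, %) with each of 6 motifs at 0, 1 and 18 h of LPS (x axis). Points are lists and bars are the mean with the SD (n = 3). NF-kB is highest at 1 h, with 6.05% against 4.48% at 18 h and 3.52% at 0 h on average.

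Pairs of lists were on average more alike within a time than across times. The Jaccard index, the sites shared by a pair of lists divided by the sites in either, was 0.721 within a time and 0.609 between times on average (exact permutation p = 0.1, the smallest possible). Replicate 1 at 18 h shared 0.610 and 0.637 with the other KO 18 h lists, which shared 0.747 with each other. The first of these lies below the highest value across times, 0.647 for KO 1 h replicate 1 and KO 18 h replicate 3, and so does the second.

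At sites open at both times, the height of the peak was compared. The number of reads at each summit was recovered from the fold and p-value columns, divided by the list's median over the 16168 sites with a summit in all 6 lists, and tested on the log2 scale with limma. These values are called relative pileup, and every change is relative to each list's median site. At an adjusted p under 0.05 (Benjamini-Hochberg over all 16168 sites), 627 sites rose (3.88%) and 536 fell (3.32%) from 1 h to 18 h, of which 559 and 451 changed by more than 1 on the log2 scale. When the background level of each list was used for scaling in place of the median, the median change over all sites was −0.51 in place of 0.08, and 6 sites rose while 1030 fell, so that 0.579% of calls were rises in place of 53.9%. This scaling moves all sites of a list by the same amount, so the kept direction of all 1163 called sites adds little. Nearly all rises given here are calls relative to the median site only. Single lists decided many of the calls. Leaving out KO 1 h replicate 1, 2 or 3 gave 142, 328 and 146 rises and 153, 223 and 139 falls. For KO 18 h replicates 1, 2 and 3 there were 1345, 499 and 189 rises and 1564, 638 and 287 falls. All 1163 called sites kept their direction in each of these 6 fits, which reuse the lists that made the calls, so this adds no support. Between 266 (KO 1 h replicate 3 left out) and 1141 (KO 18 h replicate 1 left out) of the 1163 still passed.

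**Figure D3:**
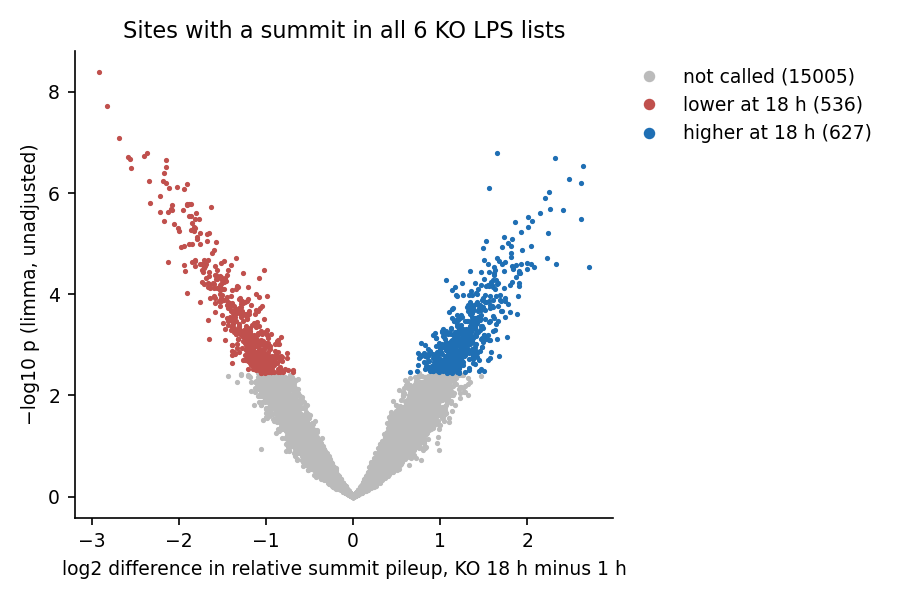
Change in relative summit pileup from 1 h to 18 h in KO cells (x axis, log2) against −log10 of limma's unadjusted p (y axis) for 16168 sites. Colours mark the 627 sites that rose and the 536 that fell at an adjusted p under 0.05.

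Some sites named here are also early-only or late-only, and both descriptions rest on the same lists. The 10 largest falls were all outside promoters. The site 44460 bp from the start of Tex44 was among the strongest peaks at 1 h, with ranks 25, 15 and 20. Its relative pileup was 4.29, 5.69 and 5.19 at 1 h and 0.615, 0.533 and 0.905 at 18 h, and it fell by 2.91 ± 0.25 (SE) on the log2 scale (limma adjusted p = 6.56e-05). The site 2161 bp from the start of Dnaic2, a dynein chain of cilia, was at 2.06, 2.08 and 2.41 at 1 h and 0.308, 0.333 and 0.286 at 18 h and fell by 2.82 ± 0.27. The AP-1 motif site in an intron of Chst3, a chondroitin sulfotransferase, fell by 2.40 ± 0.27. The NF-kB motif site by Sertad2 fell by 2.34 ± 0.29. A further 5 were nearest to Pid1, Bcat1, Fam72a, Mettl2 and Pik3ca, with falls of 2.33 to 2.68 on the log2 scale.

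Among the 10 largest rises, the Ifit site in the untranslated exon of Ifit2 was at 0.247, 0.308 and 0.259 at 1 h and at 2.23, 1.80 and 1.19 at 18 h. It rose by 2.64 ± 0.31 (limma adjusted p = 0.000392). A site in an intron of Abca1, the cholesterol exporter, rose by 2.41 ± 0.33, from 0.129, 0.231 and 0.222 to 1.31, 0.933 and 0.810. The site by Zfp36l2, an RNA-binding protein that destabilizes AU-rich transcripts, rose by 2.48 ± 0.30, and that in an intron of Hif3a by 2.26 ± 0.31. The site 24799 bp from the start of Ly6c2, a monocyte surface antigen, was at 1.20, 1.62 and 0.963 at 1 h and at 9.0, 4.47 and 5.76 at 18 h, and ranked 10, 136 and 19 in the KO 18 h lists. Sites nearest to E030030I06Rik, Pigk and Dscam rose by 2.33 to 2.62. At 2 of the 10 sites, nearest to Gm10715 and Chl1, the central 40 bases of the summit occur 6 and 3 times in the assembled chromosomes, so their reads are uncertain.

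**Figure D4:**
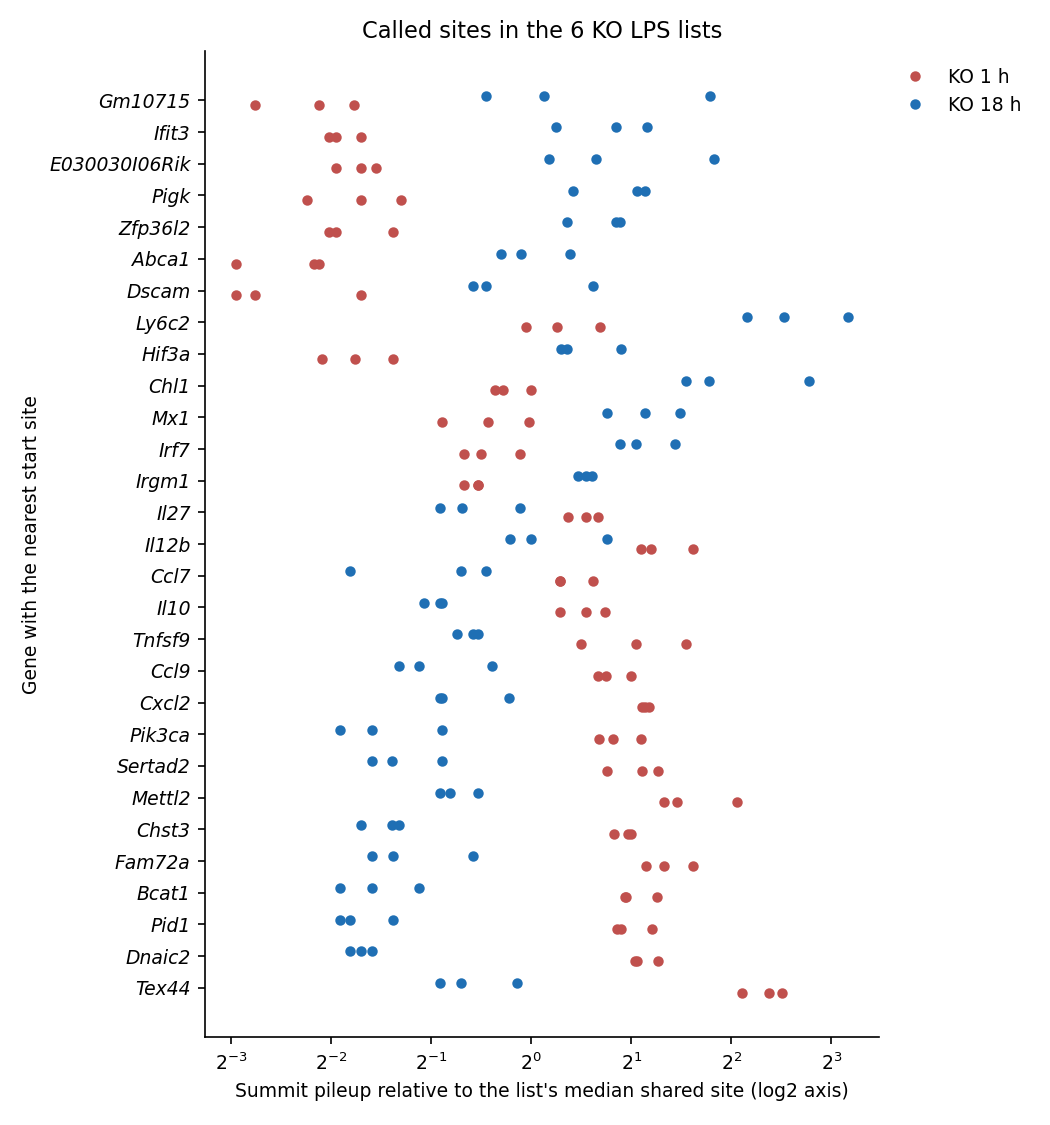
Relative summit pileup (x axis, log2 scale) of called sites in the KO 1 h and KO 18 h lists, 1 point per list, for the 10 largest rises, 9 of the 10 largest falls and sites of the interferon, cytokine and chemokine lists, named by the gene with the nearest start (y axis). No site shown has overlapping times, which follows largely from showing called sites only.

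Called sites mostly moved in the same direction in WT. Of the 627 sites that rose, 339 had a summit in all 11 LPS lists, and 321 of these (94.7%) were higher at 18 h in WT. Of the 536 that fell, 527 did, and 523 (99.2%) were lower at 18 h in WT. Over all 13719 sites shared by the 11 lists, 51.6% were higher. The KO and WT lists come from different samples. The change from 1 h to 18 h differed between KO and WT at 0 of 13719 sites (0%) in limma's interaction test at an adjusted p under 0.05, with 1011 at an unadjusted p under 0.05. When KO 18 h replicate 1 was left out 10 sites passed, and with list weights 13 did, so these 0 calls do not show that KO and WT changed alike.

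Next, each list was scaled by its median over all sites with a summit in all 9 KO lists. The untreated level was read at the called sites among them. For those that rose, the median log2 relative pileup was −0.50 at 0 h, −1.06 at 1 h and 0.23 at 18 h (497 sites). For those that fell it was −0.19, 0.58 and −0.73 (485 sites). The untreated level lay between the LPS times at 391 of the 497 and 311 of the 485. At 134 of the 485 it lay below both times. These sites were called for LPS levels that lie apart. An untreated level in between is therefore favoured by the choice, and the counts are a description. Among called sites, AP-1 stood in 24.8% (21.3% to 28.6%) of sites that fell, 15.0% (12.4% to 18.0%) of those that rose and 14.5% of all tested sites. For NF-kB the shares were 12.5%, 4.31% and 5.31%, and for C/EBP 16.4%, 23.1% and 15.0%. Of all tested sites 47.7% were promoters, against 21.5% of those that fell and 18.3% of those that rose. Over 1 kb from a start, AP-1 stood in 27.6% (23.5% to 32.0%) of sites that fell, an interval that holds the 24.6% of all tested sites there, and in 16.8% (13.8% to 20.3%) of those that rose. NF-kB stood in 11.2% (8.50% to 14.5%) of these distal falls, 4.30% of the rises and 6.36% of all, and C/EBP in 16.4%, 26.0% (22.4% to 29.9%) and 21.2%.

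Sites were then read by the gene with the nearest start. Of 21842 protein-coding genes, 1375 had an early-only site (6.3%), 770 a late-only site (3.53%), 579 a site that rose (2.65%) and 488 a site that fell (2.23%). Only 9904 of these genes had a site tested for pileup, and of those 5.85% had a rise and 4.93% a fall. When KO 18 h replicate 1 is left out, the shares over all 21842 genes become 7.70% early-only, 6.73% late-only, 5.58% with a rise and 5.99% with a fall, and counts given without that list are to be read beside these. A total of 112 genes had both an early-only and a late-only site, 8.15% of the former and 14.5% of the latter. Each gene list is given by its counts, to be read beside these shares. Most genes of every list given below had a tested site. For rises and falls the shares over the 9904 genes are therefore the nearer reference. No like share over genes with any site was made for early-only and late-only sites. The nearest gene is a label, not evidence of regulation. Of the marker lists of other cell types, Lck and Flt3 were among the genes with an early-only site and Pdgfrb had a late-only site, and their part in the results was not tested.

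Genes of the interferon response had late sites. Of 31 genes, 7 (22.6%) had a late-only site and 0 an early-only site, and 9 (29.0%, or 33.3% of the 27 with a tested site) had a site that rose and 0 one that fell. Genes with a late-only site included Ifit1, Ifit3, Mx1, Usp18, Gbp2 and Gbp5. The site 11329 bp from the start of Ifit1 held ranks 19376, 5419 and 7296 at 18 h and had no peak among the best at 0 h or 1 h. At the promoter of Irf7, the master factor of the later interferon wave, relative pileup was 0.706, 0.923 and 0.630 at 1 h and 1.85, 2.07 and 2.71 at 18 h, and it rose by 1.55 ± 0.26 (limma adjusted p = 0.00373). The promoter of the antiviral GTPase gene Mx1 rose by 1.58 ± 0.29, from 0.988, 0.538 and 0.741 to 1.69, 2.20 and 2.81. The promoter of Irgm1, which encodes an immunity-related GTPase and held an ISRE, rose by 1.12 ± 0.25. In WT the same promoters were higher at 18 h by 1.86 ± 0.24, 1.48 ± 0.27 and 1.68 ± 0.25. Leaving out KO 18 h replicate 1, 14 genes had a late-only site, 14 a site that rose, 2 an early-only site and 0 a site that fell.

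Inflammatory cytokine genes had early sites. Of 20 genes, 7 (35.0%) had an early-only site, Il1a, Il12b, Il27, Il10, Lif, Csf1 and Csf2, and 1 a late-only site, Il1rn, which encodes the natural antagonist of the interleukin-1 receptor. Sites that fell stood by 7 genes and sites that rose by 0. At the promoter of Tnfsf9, the ligand of the T cell receptor 4-1BB, relative pileup was 1.41, 2.92 and 2.07 at 1 h and 0.692, 0.600 and 0.667 at 18 h, a fall of 1.65 ± 0.29 (limma adjusted p = 0.00418). A site 6122 bp from the start of Il10, an anti-inflammatory cytokine, fell by 1.48 ± 0.27, and one with an NF-kB motif 9783 bp from Il12b by 1.12 ± 0.27. The Il12b site was absent from the best peaks of all 3 KO 0 h lists and held ranks 1244, 556 and 1794 at 1 h. The late-only site 7944 bp from Il1rn held ranks 8852, 9765 and 17561 at 18 h and was in 3 of 3 WT 18 h lists. The counts were 7 early-only, 6 late-only, 11 with a fall and 0 with a rise when KO 18 h replicate 1 was left out, against a late-only share over all genes of 6.73%.

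Chemokine genes had early sites as well. Of 17 genes, 5 (29.4%) had an early-only site, Ccl2, Ccl4, Ccl5, Ccl9 and Cxcl1, 3 had a site that fell, and 0 had a late-only site or one that rose. Those counts were 5, 4, 0 and 0 without KO 18 h replicate 1. The promoter of Cxcl2, a neutrophil attractant, held an NF-kB motif and was at 2.20, 2.15 and 2.26 at 1 h and 0.538, 0.533 and 0.857 at 18 h, a fall of 1.81 ± 0.27 (limma adjusted p = 0.0014). The promoters of Ccl9 and Ccl7 fell by 1.75 ± 0.30 and 1.39 ± 0.34. The Cxcl2 promoter had no peak among the best of the KO 0 h lists.

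NF-kB genes and the feedback genes of LPS signalling also had early sites. Of 15 NF-kB subunits and inhibitors, 4 had an early-only site, and Nfkb1 and Tnfaip3 had 4 such sites each. The best of Tnfaip3, which encodes the ubiquitin-editing brake A20, lay 30543 bp from its start with an AP-1 motif and held ranks 3994, 2225 and 5317 at 1 h. No whole KO 18 h or KO 0 h list had a peak there. The best of Nfkb1 lay in an intron with an NF-kB motif and held ranks 4128, 4651 and 3709. The promoter of Nfkb1, also with an NF-kB motif, fell from 1.58, 1.62 and 1.67 to 0.615, 0.400 and 0.762 (limma adjusted p = 0.00769). The promoters of Rel and Tnip3 fell by 0.98 ± 0.24 and 1.28 ± 0.32. The late-only site was that of Nfkbiz, whose pileup differed by 0.79 ± 0.31 (limma adjusted p = 0.132). Of 21 JAK-STAT and LPS feedback genes, 4 had an early-only site, 7 a site that fell, and 0 a late-only site or one that rose. Among them, sites by Irak2, a kinase of TLR signalling, and Socs3, a brake of cytokine signalling, fell by 1.29 ± 0.26 and 1.10 ± 0.24. When KO 18 h replicate 1 was left out, 4 of the 21 had an early-only site, 4 a late-only site, 2 one that rose and 11 one that fell. For the 15 NF-kB genes these counts were 5, 2, 1 and 6.

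The AP-1 genes themselves were divided. Of 13 AP-1 family genes, Fosl2, Jun and Jdp2 had an early-only site and Batf a late-only site. The promoter of Maff, a small Maf factor, was at 2.44, 2.69 and 3.19 at 1 h and at 0.462, 1.07 and 0.667 at 18 h and fell by 2.00 ± 0.30 (limma adjusted p = 0.00148). Atf3, a repressor induced by stress, had one site that fell by 1.05 ± 0.27, in an intron with an AP-1 motif, and one that rose by 1.30 ± 0.31, 32130 bp from its start. A site 12989 bp from the start of Batf3 rose by 1.33 ± 0.26. The late-only site by Batf held ranks 6909, 11864 and 20423. Without KO 18 h replicate 1, 3 of the 13 had an early-only site, 4 a late-only site, 5 one that rose and 3 one that fell.

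Immediate-early genes and signal brakes had an early-only site at 7 of 20 genes (35.0%) and a late-only site at 2, with falls at 5 and a rise at 1. With KO 18 h replicate 1 left out these counts were 8, 5, 9 and 4. Sites by Btg2, Gadd45b, Ier3 and Ier5 fell by 0.98 to 1.14. Klf6 had an early-only and a late-only site, and Dusp1, a phosphatase that ends MAP kinase signalling, had a late-only site and one that rose by 1.42 ± 0.31. Nr4a1 is on this list. Its promoter (chr15:101265724-101268098), with an NF-kB motif, held ranks 10403, 9808 and 7622 at 1 h and 13515, 13269 and 18485 at 0 h. No whole KO 18 h list had a summit within 1 kb of the start, and 3 of 3 whole WT 18 h lists, which are deeper, did. Among the best peaks 1 of 3 WT 18 h lists had the site. Whether the deletion removes part of this interval was not tested. None of the 9 KO lists had a summit in an exon of Nr4a1, and neither did 4 of the 5 WT LPS lists, so exon summits do not check the deletion. Of the related receptors, the promoter of Nr4a2 had a peak in 3 KO 1 h and 2 KO 18 h lists, and a site 1776 bp from Nr4a3 was in all 6 at a log2 change of −0.09 ± 0.22 (adjusted p = 0.851).

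Genes of metabolism and of late macrophage function had sites of both kinds. Of 17 enzymes of itaconate, nitric oxide, arginine and prostaglandin metabolism, 4 had an early-only site, 2 a site that rose, 0 one that fell and 1 a late-only site, in an intron of Nos2, inducible nitric oxide synthase. The promoter of Nos2 rose by 1.33 ± 0.30 (limma adjusted p = 0.0183), from 0.388, 0.615 and 0.593 to 1.69, 1.07 and 1.24, and had no peak among the best at 0 h. Of 15 glycolysis genes, Hif1a, Hk2 and Pkm had early-only sites, all with an AP-1 motif, and Pfkfb3 a late-only site. Sites by Pfkfb3 and Ldha rose by 1.32 ± 0.27 and 1.40 ± 0.34, and 2 genes, Hk1 and Hk2, had a site that fell. Of 21 secreted late and matrix genes, Mmp9, Mmp13 and Plaur had early-only sites and Saa3, Thbs1 and Pdcd1lg2 late-only sites, while 3 had a site that rose and 0 one that fell. The site by Pdcd1lg2, a ligand of the checkpoint receptor PD-1, held ranks 7032, 4781 and 5198 at 18 h. The promoter of Cd274, the other ligand of PD-1, rose by 1.02 ± 0.25, and sites by Thbs1 and Cd86 by 1.52 ± 0.23 and 1.28 ± 0.31.

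Lysosome, cholesterol and lineage genes had sites that rose at 3, 3 and 4 genes and sites that fell at 0, 1 and 1. Early-only sites stood by 2, 1 and 2 of them and late-only sites by 1, 1 and 3. Of 19 lysosomal genes, Tfeb, Ctsd and Ctsb had a site that rose and 0 one that fell. The promoter of Tfeb, a master factor of lysosome genes, rose by 1.14 ± 0.21 (limma adjusted p = 0.00651), from 1.16, 1.23 and 1.30 to 2.46, 2.80 and 2.86. Of 17 cholesterol genes, Abca1, Nr1h3 and Scd2 had a site that rose, and another Abca1 site, 80191 bp from the start, fell by 1.59 ± 0.31. Of 18 lineage genes, Spi1, Mertk, Maf and Tyrobp had a site that rose. The promoter of Tyrobp, an adaptor of myeloid receptors, held a PU.1 motif and was at 0.424, 0.462 and 0.407 at 1 h and at 1.77, 1.27 and 1.43 at 18 h, a rise of 1.78 ± 0.28 (limma adjusted p = 0.00213). Its level in the KO 0 h lists averaged 1.06, above 1 h. Maf had sites of every kind, early-only, late-only, risen and fallen. Of 6 C/EBP family genes, Cebpd and Cebpg had an early-only site and Cebpg one that rose by 1.21 ± 0.26. Of 19 cell cycle genes, 2 had an early-only site, 1 a late-only site, 1 a rise and 1 a fall. Leaving out KO 18 h replicate 1 gave rises and falls at 3 and 3 enzyme genes, 6 and 2 glycolysis genes, 3 and 4 secreted and matrix genes, 4 and 1 lysosomal genes, 5 and 3 cholesterol genes, 5 and 1 lineage genes, 2 and 2 C/EBP genes and 2 and 3 cell cycle genes. Early-only and late-only sites then stood by 4 and 2 enzyme genes, 3 and 2 glycolysis genes, 3 and 4 secreted and matrix genes, 2 and 2 lysosomal genes, 2 and 3 cholesterol genes, 2 and 4 lineage genes, 2 and 1 C/EBP genes and 2 and 1 cell cycle genes.

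**Figure D5:**
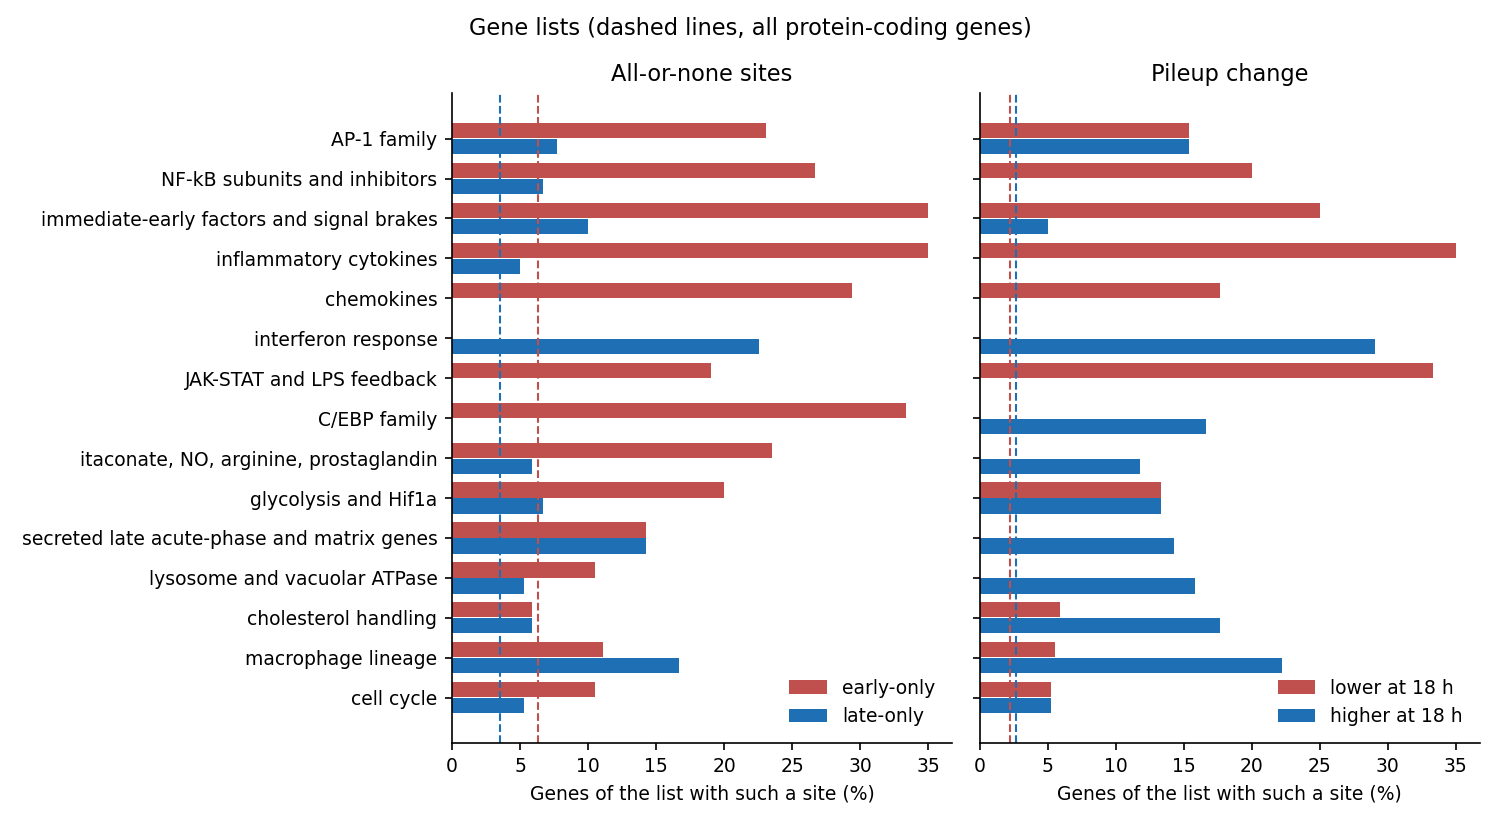
Share of the genes of each list (x axis, %) with an early-only or late-only site (left) and with a site whose pileup fell or rose from 1 h to 18 h (right), by the nearest start. Dashed lines are the shares over all 21842 protein-coding genes. Over the 9904 genes with a tested site, 5.85% had a rise and 4.93% a fall, above the dashed lines on the right. The interferon list has 22.6% late-only and 0% early-only, and the cytokine list 35.0% early-only and 5.00% late-only.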

How the data were processed

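The authors trimmed the ATAC-seq reads with cutadapt 2.6, mapped them to mm10 with the snakeATAC pipeline and called peaks in each sample separately. The names of the deposited peaks give a mapping quality of at least 20, removal of mitochondrial reads and duplicates, and a q-value of 0.001. In the deposited lists the fold column is the ratio of summit pileup to background, the p-value and q-value columns are −log10 values, and the score column was not used. The aligner and peak caller versions are not given in the sources used here. The authors' DiffBind comparison (3.0.15) was not refitted.

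Identical intervals were collapsed to the highest −log10 p-value and the best 24389 per list kept, with ties broken at random (seed 1). Peaks overlapping by at least 1 bp were merged. Summit read numbers were recovered from the fold and p-value columns, whole to within 0.05 reads in 100% of entries, and the background level divided by the shortest peak width gave depth, a relative index. The single entry with no summit took the middle of its interval. Relative pileup was tested with limma 3.58.1 (R 4.3.3), with intensity trend and Benjamini-Hochberg adjustment. Motif, promoter and similarity differences used exact two-sided permutation tests over lists. The limma step was run on simulated data with known changes. Their added noise was alike in every list, unlike these data, so the run does not check the calls made here. Genes were assigned from GENCODE starts on GRCm38.

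Named sites were the 10 best-ranked early-only and late-only sites that were all-or-none as intervals and as summit windows, the 10 largest called rises and falls, in each list up to 4 genes with the best-ranked all-or-none site or the smallest adjusted p, and the Nr4a genes. Members and lists were chosen with earlier results of these data known. Alternatives covered the number of peaks, overlap, scaling, filters, list weights, replicate blocks and leaving out lists. Those that centre within GC bins, or count gene lists and motifs without KO 18 h replicate 1, were chosen after seeing the data. A few results covered by these rules are not reported here.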

Additional observations from a re-analysis of the deposited data

How the results depend on the processing

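The labels number replicates alike at both times, but same-numbered lists did not deviate together (r = 0.05, 0.0067 and 0.041), so the numbers were not taken to pair them. With the replicate block, 751 sites rose and 634 fell, and the exact p of the AP-1 (−2.99 points), C/EBP (1.66) and NF-kB (−1.58) differences, whose values the block cannot change, was 0.25, the smallest it allows. With the block the exact p was 1 for ISRE and the E-box, 0.75 for NBRE and 0.5 for PU.1.

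Early-only and late-only counts were 760 and 391 with the best 10000 peaks, 4262 and 137 with all deposited peaks, and 936 and 46 with absence from the whole lists of the other time. Late-only sites numbered 443 among peaks with a −log10 q of at least 10 and 15 when a peak had to cover 50% of the site. Leaving out 1 list gave 2020 to 2324 early-only and 979 to 1734 late-only sites. The KO 0 h shares read in whole lists were 66.5% and 66.7%.

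Rises and falls of pileup were 6 and 1030 with background scaling and 2087 and 1986 of 31224 sites with no filter. At a pileup of at least 10 they were 90 and 121 of 8076 sites, where only 289 of the 1163 called sites could be tested. They were 1912 and 1519 with list weights, and 142 to 1345 and 139 to 1564 without 1 list. Rises were 53.9% of calls in the reported fit, 42.4% with quantile normalization and 45.2% with GC-bin centring, which was chosen after seeing the data. The KO against WT test called 13 sites with list weights and 0 to 10 without 1 list.

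Small motif differences changed sign. With all deposited peaks CRE was 0.18, the MITF and TFE E-box 0.13 and EGR 0.023 points. With the best 10000 peaks CTCF was 0.093, ISRE 0.033 and the promoter share −0.067. The E-box was 0.019 within 50 bp. Leaving out 1 list gave −0.0396 to 0.0485 for the E-box, −0.25 to 0.0349 for ISRE, −0.0349 to 0.00547 for NBRE and −0.0711 to 0.704 for PU.1, with the sign change of ISRE and PU.1 without KO 18 h replicate 1. The cause was not tested. The lowest pileup of a peak was 3 to 6 reads in the KO LPS lists, and the part of depth in the absence of peaks was not tested.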
